A study of Homo sapiens with 8 samples.

Results

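Hemidesmosomes are the junctions with which an epithelial cell holds on to its basement membrane. Laminin-332, a secreted protein of the basement membrane, is bound from the cell side by the integrin α6β4, and the long cytoplasmic tail of β4 is tied to keratin filaments by the plakin proteins plectin and the epithelial form of dystonin. The 6 genes described here code for 2 of the laminin-332 chains (LAMA3, the α3 chain, and LAMB3, the β3 chain), for the integrin subunits (ITGA6 and ITGB4) and for the plakins (PLEC and DST). They were chosen by this role and not by a measured value, though with earlier results of these data known. They are 6 of 19962 protein-coding genes on chromosomes 1 to 22 and X. For each of them the cover by 2 histone marks was read, H3K4me3, which marks promoters in use, and H3K9me3, which marks repressed chromatin.

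The cells were SUM159, an established triple-negative breast cancer line of mesenchymal character, transduced with a lentiviral vector for dCas9-KRAB, a Cas9 without nuclease activity fused to a repressor domain that brings in H3K9 methylation. In the All gRNA group the vector came with 4 guides to the promoter of ZEB1, a transcription factor that represses epithelial genes. The No gRNA group carried dCas9-KRAB and an empty guide vector, so both groups shared the fusion protein, and transduced cells were selected with puromycin. Each group had 2 libraries for each mark, described in the labels as biological replicates of the transduced cells, and 1 peak list per library was analysed.

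A limit of the labels comes before the results. For H3K9me3 the file names and the labels give the same condition. For H3K4me3 the file names of 2 of the 4 libraries give the other condition, those labelled All gRNA replicate 2 and No gRNA replicate 1. The targeted gene bears on this. H3K9me3 peaks covered 79.4% and 82.0% of the ZEB1 transcription start site (TSS) ± 10 kb in the All gRNA libraries, against 4.57% and 1.33% in the No gRNA libraries. H3K4me3 peaks covered none of the ZEB1 TSS ± 1 kb in replicate 1 under either label and 100% of it in replicate 2 under either label, so this gene goes against the H3K4me3 labels of 1 library in each group. Groups were nevertheless taken from the labels, and the H3K4me3 comparisons are given with and without those 2 libraries.

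Depth is unknown, because the lists give peaks without read counts. On the main chromosomes they hold between 284054 and 370024 H3K9me3 peaks and between 390316 and 499458 H3K4me3 peaks, most of them weak. Only 2.89% to 9.76% of the H3K9me3 peaks and 0.614% to 3.13% of the H3K4me3 peaks had a q-value (the false discovery rate that the peak caller gave to a peak) at or below 0.05. The markers of the line were mixed. The promoters of VIM and FN1, mesenchymal genes, were covered by H3K4me3 over 100% of the TSS ± 1 kb in each of the 4 libraries. That of CDH2, another mesenchymal gene, was covered over 82.6% to 100%. Among genes taken as active in every cell, GAPDH had 100% in each library, ACTB 75.1% to 100% and EEF1A1 33.1% to 100%. The promoter of ESR1, the oestrogen receptor of luminal cells, was covered over 0% in each. Promoters of other epithelial and luminal markers held H3K4me3 peaks as well, such as FOXA1 with 67.9% to 100%, so that cover by all deposited peaks does not separate the cell types.

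The promoter sequences differ among the members. The 250 bases before 5 of the starts are shown, those of both laminin genes, of ITGA6 and of DST, since the marks described below differ among these starts. Capitals mark the E-box CACCTG, or CAGGTG where it lies on the other strand, the 6-base motif that ZEB1 is known to bind. Of the members 4 were found in the RefSeq promoter table (GRCh38.p14), and the first start of LAMA3 was read from hg38 itself.
LAMA3, start of the long isoform (hg38, chr18:23689203-23689452, plus strand): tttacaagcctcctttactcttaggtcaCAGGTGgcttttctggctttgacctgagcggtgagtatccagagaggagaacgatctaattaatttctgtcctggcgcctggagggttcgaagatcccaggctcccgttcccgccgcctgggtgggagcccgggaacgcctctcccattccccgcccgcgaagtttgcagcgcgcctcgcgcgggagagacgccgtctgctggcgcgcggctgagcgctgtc
LAMA3, start of the short isoform (RefSeq, chr18:23872770-23873019, plus strand): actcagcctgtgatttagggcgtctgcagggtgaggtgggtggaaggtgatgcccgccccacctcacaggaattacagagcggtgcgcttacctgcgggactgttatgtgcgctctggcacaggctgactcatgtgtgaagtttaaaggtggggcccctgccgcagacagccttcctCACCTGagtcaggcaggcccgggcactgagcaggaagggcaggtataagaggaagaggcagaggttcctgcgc
LAMB3, first start (RefSeq, chr1:209652426-209652675, minus strand): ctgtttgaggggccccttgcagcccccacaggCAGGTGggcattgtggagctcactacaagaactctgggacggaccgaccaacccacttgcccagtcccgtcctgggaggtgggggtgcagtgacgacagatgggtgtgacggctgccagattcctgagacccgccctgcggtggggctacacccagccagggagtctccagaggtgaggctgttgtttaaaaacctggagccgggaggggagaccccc
ITGA6, first start (RefSeq, chr2:172427086-172427335, plus strand): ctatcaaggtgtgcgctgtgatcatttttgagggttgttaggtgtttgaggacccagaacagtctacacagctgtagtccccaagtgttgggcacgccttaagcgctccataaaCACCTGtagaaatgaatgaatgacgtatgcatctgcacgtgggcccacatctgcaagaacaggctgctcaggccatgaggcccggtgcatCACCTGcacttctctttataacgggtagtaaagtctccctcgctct
DST, first start (RefSeq, chr6:56954831-56955080, minus strand): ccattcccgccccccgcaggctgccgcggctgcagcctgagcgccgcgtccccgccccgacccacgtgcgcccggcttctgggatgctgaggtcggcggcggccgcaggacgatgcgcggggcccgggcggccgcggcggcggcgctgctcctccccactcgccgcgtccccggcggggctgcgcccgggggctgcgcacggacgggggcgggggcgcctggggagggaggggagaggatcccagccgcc

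The motif was read on both strands. It begins 222 bases before the long LAMA3 start, 73 before the short one and 218 before LAMB3, while the ITGA6 sequence holds it at 136 and at 46 bases before the start. The DST sequence does not hold these letters. Of the 9 RefSeq windows of these genes 3 hold the motif, against 17.5% of all 34789 RefSeq promoter windows of the same length. Those 3 are all among the sequences shown. The RefSeq windows not shown, such as that of a second LAMB3 start, do not hold it. CpG pairs, which are dense in the promoters of widely used genes, number 39 in the DST sequence with 82.8% G and C. The long LAMA3 start has 23 CpG pairs, the short LAMA3 start 9, LAMB3 8 and ITGA6 8, against a median of 11 over all windows. A second RefSeq start of ITGA6 lies 250 bases further on, and its own 250 bases before the start hold 30 CpG pairs and no match.

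The first comparison asks whether the repressive mark differed at these genes between cells with and without guides to ZEB1. In the TSS ± 10 kb of 5 of the 6 genes the mean H3K9me3 share was lower in All gRNA, with the largest difference at LAMA3. In 4 genes, LAMA3, LAMB3, ITGA6 and ITGB4, both All gRNA libraries lay below both No gRNA libraries, a pattern that 24.4% of all promoters showed. Among the 6267 promoters fully covered by H3K4me3 in all 4 libraries the same pattern held in 29.8%, a subset chosen after the data were seen. No gene reached a gap of 25 percentage points between the groups, which 0.0351% of promoters did with All gRNA lower and 0.180% with All gRNA higher.

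LAMA3, which codes for the laminin chain that integrins bind, lies on chr18:23689453-23956222 (hg38, plus strand). H3K9me3 peaks covered 0% and 6.62% of its TSS ± 10 kb in the All gRNA libraries and 26.6% and 29.3% in the No gRNA libraries. The groups did not overlap, and the lowest No gRNA library lay 19.9 points above the highest All gRNA library. The means were 3.31% ± 4.68 and 28.0% ± 1.97 (SD, n = 2 each), a difference of -24.6 points. An exact permutation test, two-sided, gave p = 0.33, which is the smallest value that 2 against 2 libraries allow and which holds for every non-overlapping comparison below. Among all 19962 promoters this difference had rank 47 from below. In bulk chromatin, fewer cells with the mark and less of the mark per cell cannot be told apart.

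The peaks behind these shares were few and weak. In No gRNA replicate 1 the LAMA3 window held 5 peaks, the widest of 2430 bases, with a lowest q of 0.233. No gRNA replicate 2 also held 5 peaks, and the strongest of them, 1889 bases wide and beginning 2.86 kb after the start, had q = 0.0538 with a fold enrichment of 1.92. All gRNA replicate 2 held 1 peak, whose q was 0.746, and All gRNA replicate 1 held none. In both No gRNA libraries peaks lay on either side of the start and none reached the TSS itself, the nearest ending at -3.00 kb in replicate 1 and beginning at 2.86 kb in replicate 2.

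**Figure D1:**
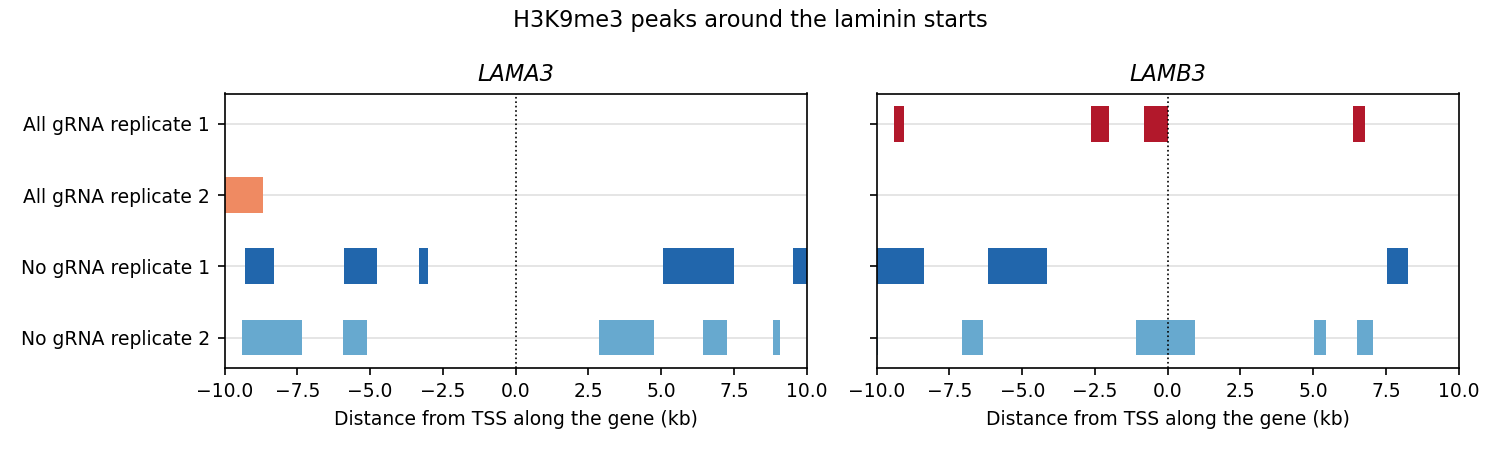
H3K9me3 peaks (bars, all deposited peaks) within 10 kb of the LAMA3 and LAMB3 starts, by library, against the distance from the start along the gene in kb. At LAMA3 the No gRNA libraries hold 5 peaks each and the All gRNA libraries 0 and 1, while at LAMB3 All gRNA replicate 1 holds 4.

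LAMB3, the β3 chain of the same laminin, lies on chr1:209614870-209652425 (minus strand). Its TSS ± 10 kb was covered over 11.2% and 0% in All gRNA, compared with 21.8% and 18.8% in No gRNA. The groups did not overlap, but the All gRNA libraries differed from each other by more than the gap of 7.60 points to No gRNA, with means of 5.59% ± 7.90 and 20.3% ± 2.12 (SD, n = 2 each). In No gRNA replicate 2 and All gRNA replicate 1 a peak reached the start itself, of 2038 and 826 bases, with q of 0.564 and 0.551. No LAMB3 peak in the window had a q below 0.394.

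At the integrin genes the group means differed by less than at the laminin genes. ITGA6, the α6 subunit (chr2:172427354-172506459, plus strand), had 5.37% and 6.26% in All gRNA, compared with 6.67% and 18.9% in No gRNA. Its groups were apart by 0.41 points only, with 1 No gRNA library near the All gRNA libraries. ITGB4, the β4 subunit (chr17:75721328-75757818, plus strand), had 0% and 1.98% in All gRNA, compared with 3.07% and 2.98% in No gRNA, values below or near the median of all promoters in each library. Those medians were 3.59% and 4.78% in All gRNA, compared with 6.63% and 7.62% in No gRNA.

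The plakin genes did not separate the groups at their starts. PLEC, the gene of the linker plectin (chr8:143915153-143976734, minus strand), was covered over 0% in both All gRNA libraries and in No gRNA replicate 1, and over 6.45% in No gRNA replicate 2. DST, whose epithelial form joins β4 to keratins (chr6:56457987-56954830, minus strand), had 8.20% and 13.1% in All gRNA, compared with 12.4% and 7.03% in No gRNA. It was the 1 member with a higher mean in All gRNA, by 0.93 points against a pooled SD of 3.61.

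Promoters over all genes moved in the same direction, while the cover of the whole genome did not. The median promoter had a difference of -0.92 points between the groups, the median of the 6 members one of -5.08 points, and 57.7% of all promoters had a lower mean in All gRNA. After each library's own promoter median was taken off, an alternative chosen after the data were seen, the differences were -21.7 points for LAMA3, -11.8 for LAMB3 and -4.01 for ITGA6, while ITGB4 turned to 0.90 and PLEC came to -0.29. The No gRNA lists also held more H3K9me3 peaks, 364553 and 370024 against 284054 and 304735, but covered slightly less of the genome, 723 and 724 Mb against 740 and 770 Mb. The part of these list differences in the results was not tested. With each list kept to the same covered length the median of the members was -6.28 points. Leaving out No gRNA replicate 2 brought it to -1.91 points and leaving out No gRNA replicate 1 to -9.74 points, and with peaks of q at or below 0.05 it was 0, since no member had such a peak in the window.

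Over the gene bodies, from start to end of each gene, the 6 members lined up. Both All gRNA libraries lay below both No gRNA libraries in 6 of the 6 genes, against 24.5% of all genes and 36.5% of the 8453 genes at least as long as the shortest member, a subset chosen after the data were seen. The share of LAMA3 was 2.96% and 3.85% in All gRNA, compared with 11.2% and 8.72% in No gRNA. LAMB3 had 1.18% and 1.24% against 6.12% and 7.80%, and ITGA6 1.25% and 1.67% against 5.42% and 5.49%. In these genes the No gRNA libraries were above the All gRNA libraries by more than either pair differed within itself.

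ITGB4 had no H3K9me3 peak in its body in the All gRNA libraries, while 2.52% and 1.82% were covered in No gRNA, from 1 peak each. PLEC had 1.85% and 2.84% against 6.45% and 9.92%. DST, the longest of them with 497 kb, had 7.56% and 7.85% against 11.2% and 9.77%. Summed over the 978 kb of the 6 genes, H3K9me3 peaks covered 48.0 and 52.8 kb in All gRNA, compared with 97.2 and 85.9 kb in No gRNA, and DST and LAMA3 made up most of it. The median gene had a difference of -0.53 points and the median member one of -4.88 points.

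Limits go with the body values. The medians over all gene bodies were 2.53% and 3.46% in All gRNA, compared with 5.28% and 6.21% in No gRNA, and relative to them LAMA3 (-3.82 points), PLEC (-3.09), LAMB3 (-3.00) and ITGA6 (-1.24) stayed lower in All gRNA, DST came to -0.04 and ITGB4 turned to 0.59. With peaks of q at or below 0.05 the median difference was 0, since only 5 such peaks lay in the bodies, 3 in DST and 2 in LAMA3.

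**Figure D2:**
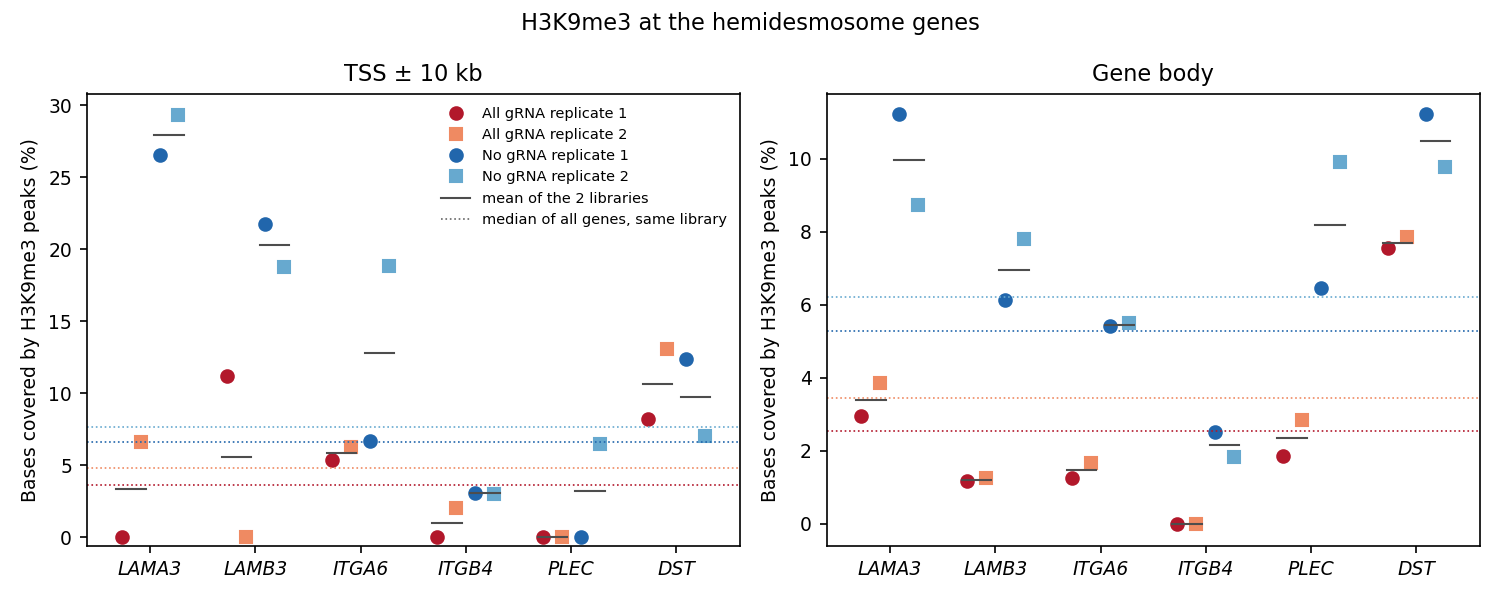
Share of bases (%) covered by H3K9me3 peaks in the TSS ± 10 kb (left) and the gene body (right) of the 6 genes, 1 point per library, with the mean of the 2 libraries as a bar and the median of all genes in each library as a dotted line in its colour. The groups do not overlap in 4 genes at the TSS and in 6 genes over the body, and the dotted lines of No gRNA lie above those of All gRNA.

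Along LAMA3 the mark was not even. The gene was cut by the fixed 10 kb windows of the genome, and 28 windows touch it. Both All gRNA libraries were below both No gRNA libraries in 10 of them, and 9 of these were consecutive, with midpoints from -4.45 to 75.5 kb relative to the start. Over these 9 windows the mean share was 7.59% and 8.47% in All gRNA, compared with 28.6% and 25.8% in No gRNA. Over the other 19 windows it was 0.56% and 1.80% against 3.50% and 1.58%, where the groups overlapped. The stretch was marked off after its values were seen, so it is a description without a test. It holds exons 1 to 8 of the 75 exons of the long transcript LAMA3-202.

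One LAMA3 window was called, chr18:23690001-23700000, which no All gRNA peak touched and which was covered over 32.2% and 29.6% in No gRNA. It lies inside the first intron of LAMA3-202 with no exon of that transcript. Of all 303091 windows 0.196% were called with All gRNA lower and 0.877% with All gRNA higher, and 13.8% were lower without overlap. The most covered LAMA3 window had its midpoint 35.5 kb after the start, again between exons, with 28.7% in each All gRNA library and 54.9% and 49.1% in No gRNA. H3K9me3 peaks were thus listed there in each of the 4 libraries, over different shares.

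Along DST the values were more scattered. Of its 51 windows 12 were lower and 1 was higher in All gRNA without overlap, spread over the gene, and none was called. Ranked by the lowest of the 4 library values, the first 2 DST windows had groups that overlapped. The window 170 kb after the start had 67.8% and 52.1% in All gRNA, compared with 61.6% and 64.3% in No gRNA, and the window 370 kb after it 47.0% and 39.8% against 41.9% and 44.5%. The next, 9.83 kb after the start, had 25.9% and 30.8% against 46.8% and 34.9%, without overlap. LAMB3 had 3 of 5 windows lower without overlap, PLEC 2 of 7, ITGB4 1 of 4 and ITGA6 0 of 9. Over the 6 genes 28 of 104 windows were lower and 1 was higher without overlap, and 9 of the 28 were the consecutive LAMA3 windows. Of all windows 13.8% were lower and 16.5% higher, but these include windows outside genes, and windows within genes were not counted apart. Without overlap 24.4% of promoters were lower and 11.0% higher, and 24.5% and 10.8% of gene bodies.

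**Figure D3:**
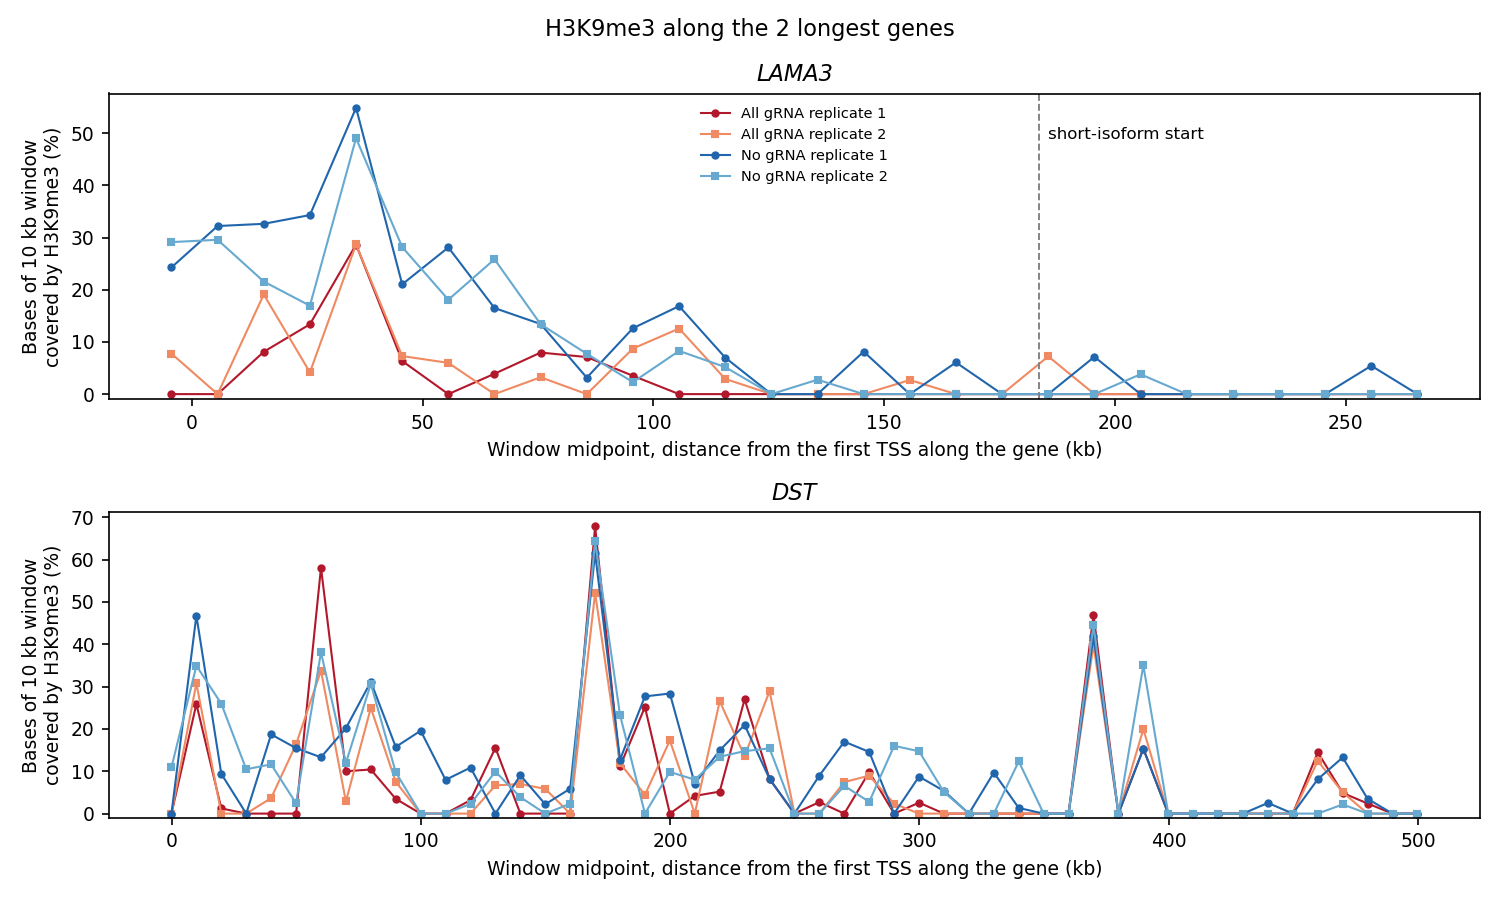
Share (%) of consecutive 10 kb windows covered by H3K9me3 peaks along LAMA3 (top) and DST (bottom), 1 line per library, against the distance of the window midpoint from the first start in kb. The No gRNA lines lie above the All gRNA lines over the first 9 LAMA3 windows, while the DST windows 170 and 370 kb from the start are covered in all 4 libraries.

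The second comparison concerns H3K4me3, the promoter mark. The starts of LAMB3, ITGA6 and DST were covered over 100% of the TSS ± 1 kb in each of the 4 libraries. No member was called, against 1.78% of promoters called with All gRNA higher and 2.21% with All gRNA lower. ITGB4 had 100% and 95.7% under the All gRNA label, and 100% in both libraries under the No gRNA label. LAMA3 had 84.2% and 100% against 69.3% and 100%, where each labelled group held 1 full and 1 partial library. With groups taken from the file names the LAMA3 shares would not overlap, 84.2% and 69.3% with guides against 100% and 100% without. How many of all promoters would show this under the file names was not counted. PLEC had 100% in each library but that labelled No gRNA replicate 1, with 30.2%.

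Without the 2 libraries whose file name gives the other condition, 1 library was left on each side and there was no replicate check. LAMA3 then had 84.2% under the All gRNA label (replicate 1) and 100% under the No gRNA label (replicate 2), and the other 5 members had 100% in both. The LAMA3 difference was 7.47 points with all libraries and -15.8 points without those 2, so its direction rested on them.

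The H3K4me3 peaks at these starts were wide and, in part of the libraries, weak. The longest peak at the LAMA3 start measured 10252 and 11305 bases under the All gRNA label, compared with 15565 and 13577 bases under the No gRNA label. It was the only member whose widths did not overlap between the groups, and 19.0% of promoters had narrower peaks without overlap in All gRNA and 9.79% wider ones. Without the 2 doubtful libraries the widths were 10252 and 13577 bases, a direction already fixed by the missing overlap. With groups taken from the file names the LAMA3 widths would overlap. At LAMB3 the peak was 25357 and 16264 bases wide against 57546 and 15477, so that 1 library labelled No gRNA set the mean. ITGA6 had 22276 and 28107 bases against 45900 and 27996, and ITGB4 8009 and 3747 against 13049 and 6515. The groups overlapped in these 3 genes (exact permutation test, two-sided, p = 1 for LAMB3 and 0.67 for each integrin). Without the 2 doubtful libraries LAMB3 had 25357 bases under the All gRNA label against 15477, ITGA6 22276 against 27996 and ITGB4 8009 against 6515. The direction of the difference thus turned in LAMB3 and ITGB4. With groups taken from the file names these same genes, LAMB3 and ITGB4, would not overlap, with wider peaks in the libraries with guides, while ITGA6 would overlap. How many of all promoters would show this under the file names was not counted.

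PLEC held the widest peak of the 6 in 3 of the 4 libraries. Its peaks were 32667 and 73694 bases wide under the All gRNA label, compared with 31297 and 83942 under the No gRNA label. With groups taken from the file names the PLEC widths would not overlap, 32667 and 31297 bases with guides against 73694 and 83942 without. In replicate 2 under either label the peak reached 70.3 and 58.9 kb past the first start, and as the gene is 61.6 kb long, the first of these ran beyond its end. With the library labelled No gRNA replicate 1, however, the peak stopped before the start, at -0.397 kb along the gene. DST peaks measured 12896 and 27773 bases against 16615 and 12598. Without the 2 doubtful libraries PLEC had 32667 bases against 83942 and DST 12896 against 12598, and the median difference over the 6 members went from -4172 to -1514 bases. The median longest peak over all promoters was 4125 to 5553 bases in the 4 libraries, and 23 of the 24 member values were above the highest of these medians.

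The enrichment of the same peaks was low. The fold enrichment at the starts ranged from 2.02 for LAMB3 in the library labelled All gRNA replicate 2 to 3.54 for DST in that labelled No gRNA replicate 2. A peak with q at or below 0.05 was found at 4 members under the label All gRNA replicate 1 (LAMA3, ITGB4, PLEC and DST) and at 4 under the label No gRNA replicate 2 (LAMA3, ITGA6, PLEC and DST). In the other two libraries it was found at none, and there 11.5% and 9.26% of all promoters had such a peak, against 33.2% and 52.6% in the first pair. The lowest q was 0.00098, at DST in the library labelled No gRNA replicate 2. LAMB3 passed that limit in no library, with q from 0.0940 to 0.440, although its start was covered in each.

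**Figure D4:**
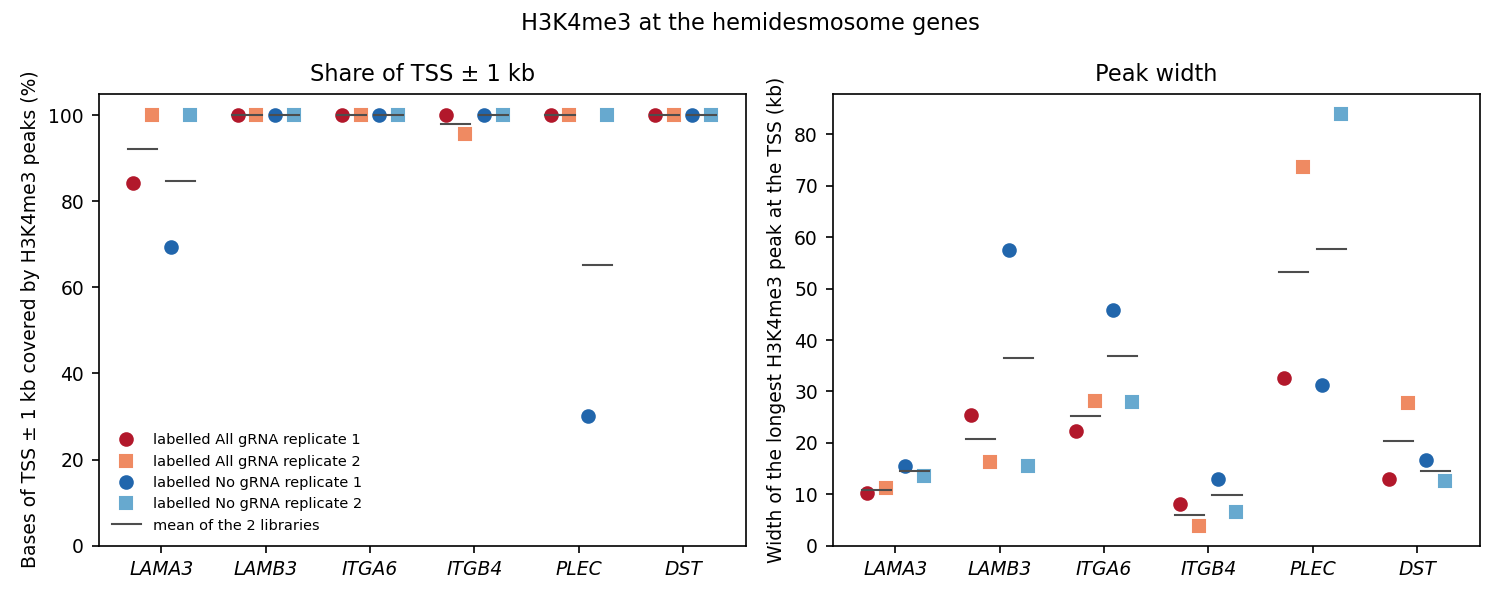
H3K4me3 at the 6 first starts, as the share (%) of the TSS ± 1 kb covered (left) and the width in kb of the longest peak (right), 1 point per library by its label and the mean of the 2 libraries as a bar. The shares are at 100% but for LAMA3, ITGB4 and 1 PLEC library. The PLEC widths fall into pairs, 31.3 and 32.7 kb and 73.7 and 83.9 kb, that cut across the labels and go with the file names.

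Several of these genes have more than 1 promoter. Starts of protein-coding transcripts up to 500 bases apart were taken as 1, which gave 40 starts, and 16 of them were covered by H3K4me3 over 100% of the start ± 1 kb in each library. That is 40% of the members' starts, against 24.8% of the 38975 starts of all protein-coding genes. Of these 16 starts PLEC held 9, DST 4, LAMB3 2 and ITGA6 1, while LAMA3 and ITGB4 had none. Wide peaks lay over several PLEC starts at once, so those were not separate observations, and PLEC weighed most in the 40%. In the 2 libraries left without the doubtful ones 19 of the 40 were covered in full, or 47.5%, against 34.9% of all starts. PLEC held 11 of those 19, with each of its 11 starts. PLEC, whose starts give plectin different first exons, had 9 of its 11 starts covered in full in each library, and the 2 that were not are its first starts, 1.36 kb apart. At the second of them the library labelled No gRNA replicate 1 had 20.8% and the others 100%.

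LAMA3 makes a long α3B chain of 3333 residues from its first start and the short α3A chain of 1724 residues, the form of laminin-332 in hemidesmosomes, from a start 184 kb further on. The short-isoform start was covered by H3K4me3 over 78.8% and 54.1% under the All gRNA label, compared with 89.7% and 72.3% under the No gRNA label, overlapping values. Without the doubtful libraries 78.8% stood against 72.3%, the other direction. With groups taken from the file names the values would not overlap, 78.8% and 89.7% with guides against 54.1% and 72.3% without. The strongest peaks at the short-isoform start had q from 0.429 to 0.956. H3K9me3 covered 0% and 3.61% of its ± 10 kb in All gRNA, compared with 3.57% and 0% in No gRNA. The H3K9me3 difference at the long start was thus not seen in the values of the short one, and the difference between the starts was not tested.

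DST had 4 of 12 starts covered in full in each library. One of these, 312 kb after the first, is the start of the epithelial form that sits in hemidesmosomes (transcript DST-205) and of the long transcript DST-201. Its lowest q ranged from 0.0951 to 0.206. The strongest DST start lay 111 kb after the first, with fold enrichments of 3.10 and 2.79 under the All gRNA label, compared with 2.44 and 3.88 under the No gRNA label and q between 0.00034 and 0.118. Without the doubtful libraries the fold enrichment there was 3.10 against 3.88, and the epithelial start was at 100% in both. The marks at the DST starts thus came with different strength, and the values of the labelled groups overlapped.

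Of the 40 starts 3 were called, each with All gRNA lower, against 3.40% of all starts called lower and 2.00% called higher. They are late starts of short transcripts. The last LAMA3 start, 260 kb after the first, had 12.9% and 14.0% under the All gRNA label, compared with 100% and 63.4% under the No gRNA label. The second ITGA6 start had 18.1% and 4.20% against 87.1% and 54.8%, and the last ITGB4 start 53.8% and 3.25% against 100% and 100%. Without the 2 doubtful libraries the values were 12.9% against 63.4%, 18.1% against 54.8% and 53.8% against 100%. This could not turn the direction, since a call needs each All gRNA value below each No gRNA value. With groups taken from the file names, the values of the groups would overlap at each of these 3 starts. The 3 calls thus hold under the labels only. At each of these 3 starts no peak had a q below 0.240.

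**Figure D5:**
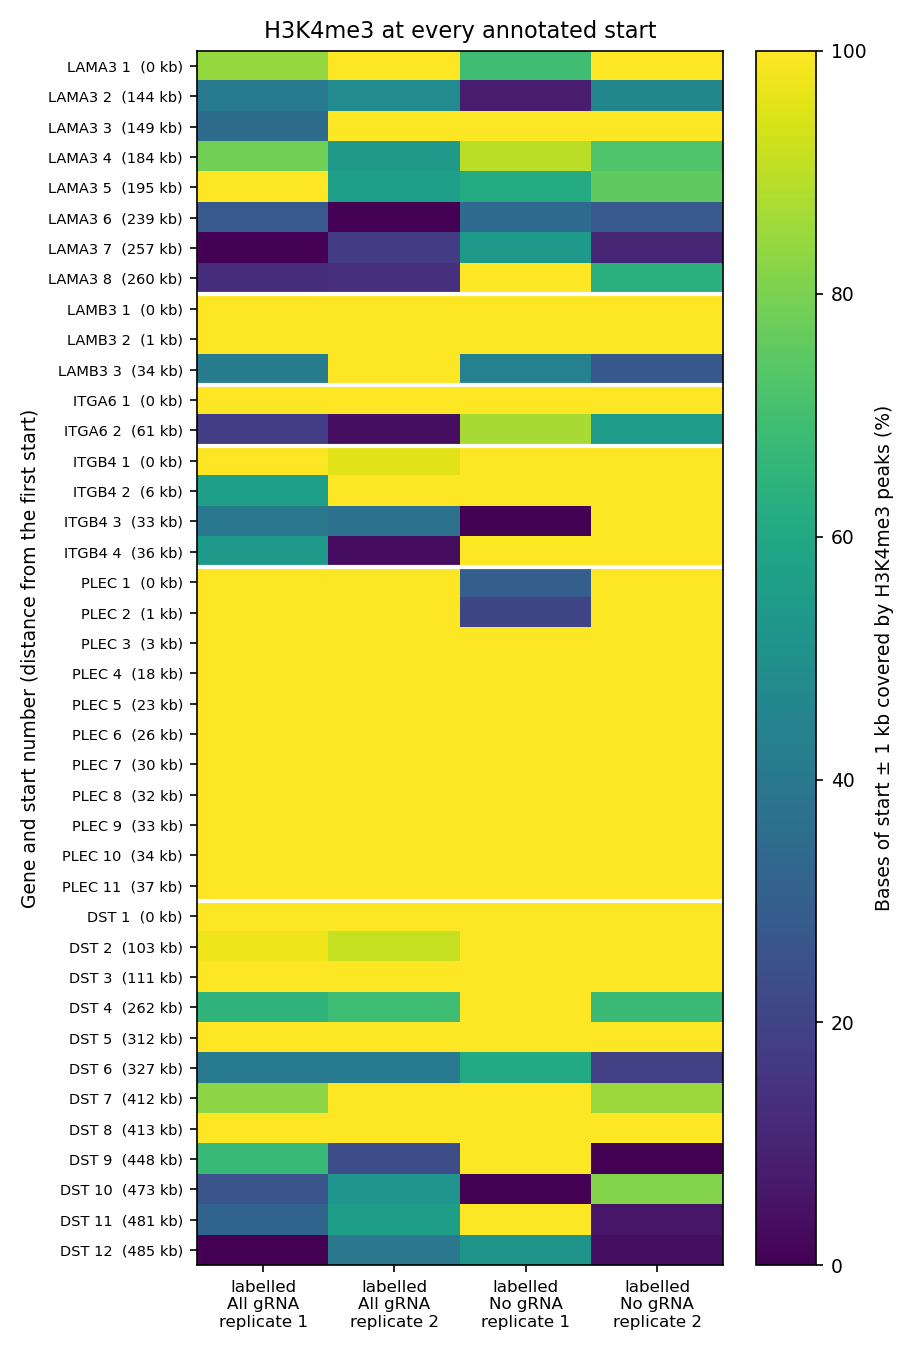
Share (%) of the ± 1 kb around each of the 40 annotated starts covered by H3K4me3 peaks, 1 row per start with its distance from the first start in kb and 1 column per library by its label. The PLEC rows are at 100% but for the first 2 starts in 1 library, while LAMA3 and the late DST starts vary between libraries.

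Other genes of cell adhesion to the basement membrane give the setting. A list of 21 was taken, 8 hemidesmosome partners, 8 other laminin chains and 5 further basement membrane genes. At the TSS ± 10 kb the mean H3K9me3 share was lower in All gRNA in 15 of 21 and higher in 6, with 9 lower and 0 higher without overlap (24.4% and 11.0% of all promoters), none called and a median difference of -3.36 points. Over the gene bodies 16 were lower and 3 higher, with 12 lower and 1 higher without overlap (24.5% and 10.8% of all genes). All 5 basement membrane genes were lower at the TSS, while the 8 laminin chains were split 4 to 4. Of those 5, COL4A1 and COL4A2 had nearly the same H3K9me3 values in each library. COL4A1 had 0% and 3.91% in All gRNA against 11.1% and 11.5%, and COL4A2 0% and 3.91% against 11.6% and 11.5%. These counts, also that of genes without overlap, may thus hold 1 region more than once.

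The genes with the lowest H3K9me3 differences on that list were ITGB1 and LAMB1. ITGB1, the β1 integrin subunit, had 7.45% and 12.2% in All gRNA against 33.1% and 17.8%, and LAMB1, the β1 laminin chain, 5.66% and 6.03% against 24.0% and 17.8%. LAMA1, the α1 laminin chain, had the highest difference with 19.0% and 46.1% against 15.3% and 42.6%, values that overlap. LAMC3, a γ chain, came next with 15.5% and 0% against 8.91% and 0%. COL17A1, a collagen that spans the membrane in hemidesmosomes, had 26.6% and 26.0% against 43.9% and 38.6%, without overlap, and is named here after its values were seen.

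For H3K4me3, 1 of the 21 genes was called, LAMA4, an α chain of vessel and mesenchymal laminins. Its TSS ± 1 kb was covered over 90.3% and 100% under the All gRNA label, compared with 50.1% and 60.8% under the No gRNA label. Without the 2 doubtful libraries 90.3% stood against 60.8%, a direction that the call fixes in advance. With groups taken from the file names the LAMA4 values would overlap. Of the others 6 were lower, 5 were higher and 9 had the same mean, 100% in every library.

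Genes whose 8 promoter values (H3K4me3 share of the TSS ± 1 kb and H3K9me3 share of the TSS ± 10 kb, 4 libraries each) lie nearest to a member by Euclidean distance were looked up, leaving out neighbours within 20 kb. The nearest were PSAT1 to LAMB3 at 3.31 points, STKLD1 to ITGA6 at 2.16, UROD to ITGB4 at 2.64, TMEM25 to PLEC at 0.92 and MAK to DST at 2.54. LAMA3 had no close match. Its nearest gene, ABHD12, was 15.6 points away, with H3K9me3 shares of 3.77% and 1.69% in All gRNA, compared with 19.9% and 24.1% in No gRNA.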

How the data were processed

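Native ChIP-seq for H3K9me3 and H3K4me3 was deposited as 1 hg38 broad-peak list per library, without pooling. The study's methods name fastp, bowtie2, removal of duplicates and of an exclusion list, and MACS2 with reads extended to 200 bases. The labels name bcl2fastq 2.17, Trimmomatic 0.33, Bowtie 1.1.2 and MACS2 2.1.0, so the 2 accounts differ. Whether input served as control is not given in the sources used here. Each deposited peak has a score, a fold enrichment ratio and −log10 values of p and q (p-value, q-value) from the authors' peak caller, and the lowest −log10 p-value was 1.00. All deposited peaks of chromosomes 1 to 22 and X were merged per library, and the share of bases covered was computed in windows around the 5′ end of protein-coding genes (GENCODE release 44). A weak and a strong peak count alike in such a share.

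Libraries were compared by exact permutation over the 6 relabellings of 2 against 2 libraries, with a smallest p of 0.33. Calls needed a gap of 25 points between the groups. p-values measure the spread between libraries only. Same-numbered libraries deviated together with r = 0.026 (H3K9me3) and 0.015 (H3K4me3) across promoters, so no pairing by number was seen in these shares. For H3K4me3 the replicate number coincides with the condition in the file names, so that r cannot tell pairing from condition. Named genes were the members, ZEB1, markers, called genes or the 2 highest and 2 lowest of the 21 listed, and the nearest gene per member. COL17A1, COL4A1 and COL4A2 were added after their values were seen. Members and lists were chosen with earlier results of these data known. Scripts were tested on simulated data (Python 3.11.15, pandas 2.3.3, numpy 2.4.6, matplotlib 3.10.9).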

Additional observations from a re-analysis of the deposited data

How the results depend on the processing

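Of 45 alternatives to the median differences over the members 34 moved them by less than the spread between libraries and 11 by more. These counts do not measure stability, since some alternatives could not move a median. The replicate block leaves each median as it was. For the H3K4me3 width the spread of 5209 bases was larger than the difference itself, so that even a median of 0 counted as unmoved. For the H3K9me3 share of the TSS ± 10 kb (median difference -5.08 points over the members) the median was 0 with q at or below 0.05 and 0 with q at or below 0.01, -3.21 with the TSS ± 25 kb and -2.15 relative to the library median. Leaving out 1 library gave -9.74 to -1.91, the lowest without No gRNA replicate 1 and the highest without No gRNA replicate 2. For the gene body (-4.88 points) it was 0 at both q limits and -2.12 relative to the library median, and leaving out 1 library gave -5.00 to -4.04. For the H3K4me3 share (0) it was -1.63 with the TSS ± 2 kb and -2.52 relative to the library median, and leaving out 1 library gave 0 in each case. For the H3K4me3 width (-4172 bases), leaving out 1 library gave -7737 to -1718 bases, the median was -831 with q at or below 0.05 and 0 with q at or below 0.01, and -1514 without the 2 libraries whose file name gives the other condition. Alternatives relative to the library median, and q at or below 0.001 for H3K4me3, were chosen after seeing the data. Calls over all promoters went from 798 to 205 with a gap of 50 points and to 350 with q at or below 0.05 for H3K4me3, and from 43 to 3 and 46 for H3K9me3. With the replicate block the medians were 0, -4172 bases, -5.08 and -4.88 points, with a smallest p of 0.5, and no call changed. The cause of these shifts was not tested. Without read counts no limit from depth can be given, and a region without a peak may still hold the mark.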
